A study of Mus musculus with 2 samples.

Results

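Classical monocytes were sought among liver cells of mice with a congested liver by 4 transcripts, Ly6c2, Ccr2, F13a1 and Chil3, of which a barcode had to hold at least 5 counts in sum. A barcode also had to hold fewer than 10 counts per 10000 of the Kupffer cell genes Clec4f, Vsig4, Cd5l and C6, and fewer than 15 per 10000 of the endothelial genes Ptprb, Kdr, Stab2 and Gpr182. It had to hold fewer than 3 counts of Ace, Treml4 and Sirpb1c, fewer than 2 of the dendritic cell genes Mgl2, Cd209a and Flt3, fewer than 5 of the granulocyte precursor genes Mpo, Elane and Ctsg, fewer than 2 of Siglech, and no count of Cd3e, Cd3d, Cd3g or Ncr1. The rule found 700 barcodes among 16716 kept ones, 418 of 7917 in the control library and 282 of 8799 in the knockout library. Because the barcodes were chosen by these measured counts, the levels of the 4 genes and the absence of the other genes are a description and not a finding.

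The study profiled liver cells other than hepatocytes by microwell-based single-cell RNA sequencing after partial ligation of the inferior vena cava (pIVCL), an operation that impedes the outflow of blood from the liver. Each label is represented by 1 library from 1 male mouse, and the animals were littermates. The genotype given for the knockout is Cdh5-CreERT2; Ctgffl/fl, in which a tamoxifen-activated Cre recombinase is driven by the Cdh5 promoter of endothelial cells and recombines floxed alleles of Ctgf, now called Ccn2, the gene of a matricellular protein. The genotype given for the control is Ctgffl/fl, so both mice carried the floxed alleles and both had pIVCL. No source used here gives the ages of the mice or the tamoxifen schedule. Hepatocytes, dead cells and erythrocytes were depleted from the suspensions, so shares of barcodes are shares of a suspension, not of the liver.

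Sample titles go against their genotype labels, since the sample with the floxed alleles alone is titled as the knockout. Libraries are called control and knockout by their genotype label, and Ccn2 in endothelial barcodes went with it, at 923 CPM (CPM is the share of a group's summed counts, scaled to 1e6) in the control library and 49.0 CPM in the knockout library. Each file listed 10000 barcodes, with 106208933 and 129802501 counts in all. The files shared 2 barcode sequences, none of them among the monocyte barcodes. With 1 library per label there is no replicate error, so no difference below has a test or a p-value. Intervals are exact 95% intervals for counting error only, and differences between the 2 mice that have nothing to do with genotype cannot be told apart from it. Where 2 values are given without a name, the control library comes before the knockout library. A gene is called higher or lower where its CPM differed at least 1.5-fold.

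Classical monocytes are made in the bone marrow and leave it through the chemokine receptor CCR2. In injured mouse liver they enter from the blood with high surface Ly6C, and those that stay can lose Ly6C and take on macrophage features such as complement C1q, apolipoprotein E and MHC class II. Ly6c2 and Chil3 are not restricted to monocytes, since immature mouse neutrophils can also hold these transcripts.

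The label was checked against genes the rule did not use, and most of the barcodes in the knockout library went against it. Over the 6 neutrophil genes Camp, Ltf, Ngp, Ly6g, Retnlg and Cxcr2, the barcodes fell into separate groups in both libraries. In the control library, 376 barcodes held no such count, 16 held 1 or 2, 1 held 3 to 19, and 25 held 20 or more. In the knockout library, 84 held none, 26 held 1 or 2, 1 held 3 to 19, and 171 held 20 or more. Between 3 and 19 there was 1 barcode in each library, so the place of a dividing line in that range matters little. With a line at 3 counts, neutrophil-like barcodes were 26 of the 418, or 6.22% (4.10 to 8.98), in the control library and 172 of the 282, or 61.0% (55.0 to 66.7), in the knockout library.

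**Figure D1:**
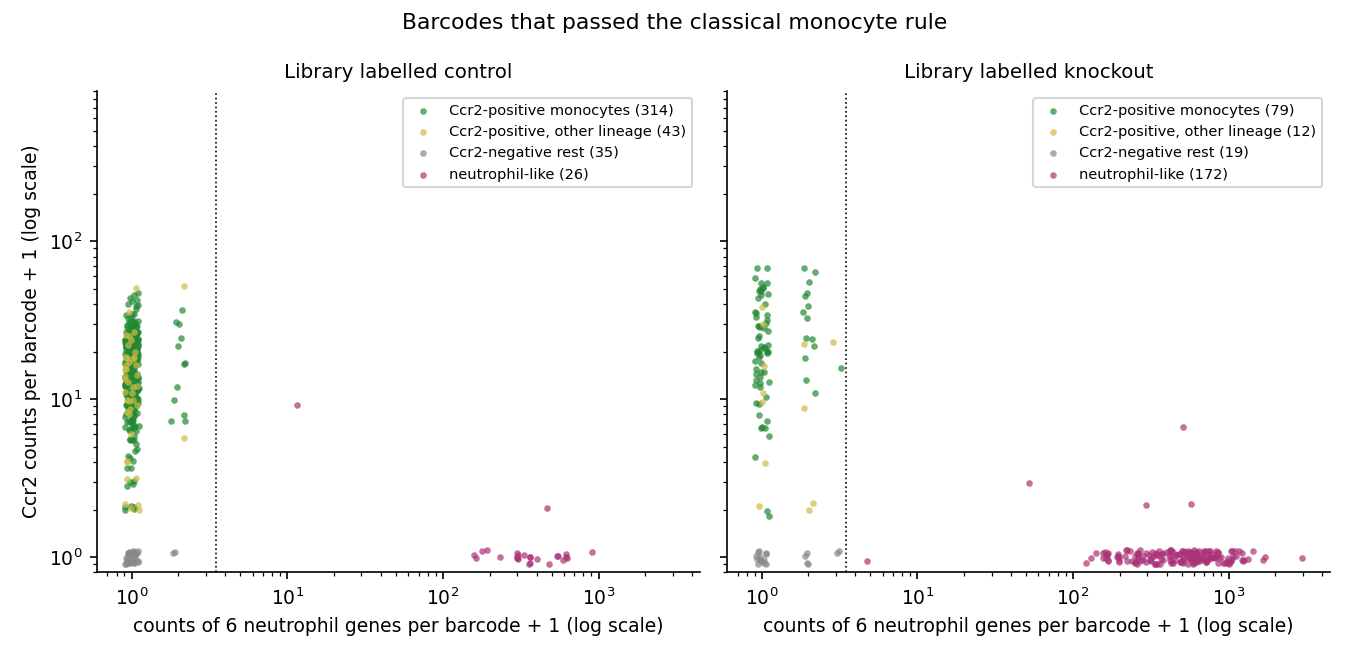
Counts of the 6 neutrophil genes (horizontal, plus 1, log scale) and of Ccr2 (vertical, plus 1, log scale) in each barcode that passed the rule, by library, with points jittered slightly and the dotted line at the cut of 3 counts. In each library the barcodes form a Ccr2-positive group at the left and a group at the lower right that is rich in neutrophil transcripts, with 26 and 172 barcodes.

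The neutrophil-like barcodes carried a granule programme at similar levels in both libraries. Ngp, a secondary granule protein, stood at 42528 CPM in the control library and 45529 CPM in the knockout library. Ltf (lactoferrin) stood at 11064 and 11189 CPM, Camp (cathelicidin) at 4717 and 6342 CPM, and the surface marker Ly6g at 904 and 1093 CPM. The alarmin subunit S100a8 reached 46249 and 50102 CPM. These barcodes had passed the rule through 2 of its genes: Ly6c2 stood at 1743 and 1690 CPM and Chil3 at 5902 and 7453 CPM, whereas F13a1 stood at 6.55 and 17.5 CPM and Ccr2 at 59.0 and 6.57 CPM. In the control library 8 of the 9 Ccr2 counts lay in 1 barcode that held 10 neutrophil counts, and without that barcode Ccr2 stood at 7.21 CPM. Csf1r, the receptor of macrophage colony-stimulating factor, stood at 131 and 51.1 CPM, against 1292 and 634 CPM in the Ccr2-positive barcodes described below. Mki67, a marker of dividing cells, was detected in 26.9% and 23.8% of the neutrophil-like barcodes. Of 6553 genes measured in them, 22.7% were called higher and 16.2% lower in the knockout library. Of 18 cell cycle genes, 15 were higher and none lower, with a median log2 ratio of 1.45 from 26 barcodes on the control side, and of 16 alarmin and granule genes none was higher and 2 were lower.

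The barcodes taken to fit the label held at least 1 Ccr2 count and fewer than 3 neutrophil counts. They held fewer than 3 counts of each of 4 gene groups that mark B cells, plasma cells, stellate cells and basophils or mast cells. This line was drawn after the values had been seen. It left 314 barcodes in the control library and 79 in the knockout library, or 75.1% and 28.0% of all that passed the rule. They are here called Ccr2-positive monocytes. For 63 and 10 of them Ccr2 was the only gene of the 4 detected, and Ly6c2 was detected in 56.1% and 75.9%. Many held macrophage features as well, with C1qb detected in 61.8% and 45.6% and H2-Aa in 68.5% and 45.6%. The name thus does not part classical monocytes from cells that have taken on macrophage features. A further 43 and 12 barcodes held Ccr2 together with genes of another lineage. The last 35 and 19 held no Ccr2 count and were themselves mixed. In the knockout library this Ccr2-negative rest was led by plasma cell transcripts, with Igkc at 117560 CPM and Jchain at 10448 CPM, and by the eosinophil granule gene Prg2 at 11890 CPM, against 12.1 CPM in the control library. In the control library it held Igkc at 50660 CPM and Jchain at 4131 CPM, but also the macrophage genes Apoe at 7548 CPM, Fn1 at 3922 CPM and Spp1 at 798 CPM.

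**Figure D2:**
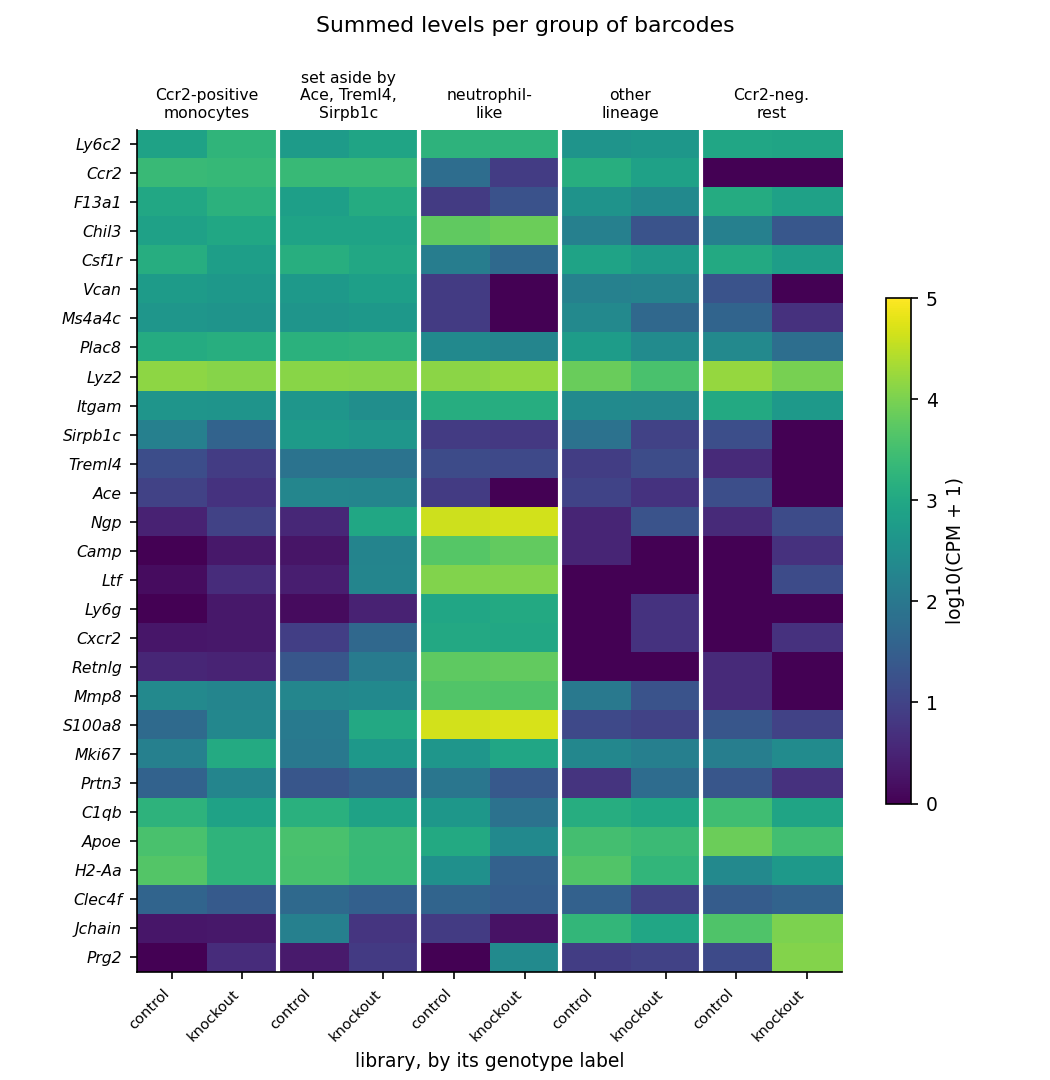
Summed level of marker genes as log10(CPM + 1), by group of barcodes and library. Ccr2, Csf1r, F13a1, Ms4a4c and Vcan are high in the Ccr2-positive monocytes and in the barcodes that the cut on Ace, Treml4 and Sirpb1c set aside, and Ngp, Camp, Ltf, Ly6g and S100a8 are high in the neutrophil-like barcodes.

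The share of barcodes that passed the rule was lower in the knockout library, and this rested on which cells are counted. All that passed were 5.28% (4.80 to 5.80) of kept barcodes in the control library and 3.20% (2.85 to 3.59) in the knockout library, a log2 ratio of -0.72 (-0.94 to -0.50). Over barcodes that passed neither the Kupffer nor the endothelial cut, 3103 and 2069, the shares were 13.5% and 13.6%. The groups within went opposite ways. Ccr2-positive monocytes were 3.97% (3.55 to 4.42) and 0.898% (0.711 to 1.12) of kept barcodes, 4.42-fold lower in the knockout library, with a log2 ratio of -2.14 (-2.52 to -1.78). Over barcodes outside the Kupffer and endothelial cuts they were 10.1% and 3.82%, with a log2 ratio of -1.41 (-1.78 to -1.05). Neutrophil-like barcodes were 0.328% (0.215 to 0.481) and 1.95% (1.68 to 2.27) of kept barcodes, with a log2 ratio of 2.57 (1.97 to 3.23). Endothelial barcodes made up 29.9% and 44.0% of kept barcodes, and the part of that difference in any share of all kept barcodes was not tested.

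**Figure D3:**
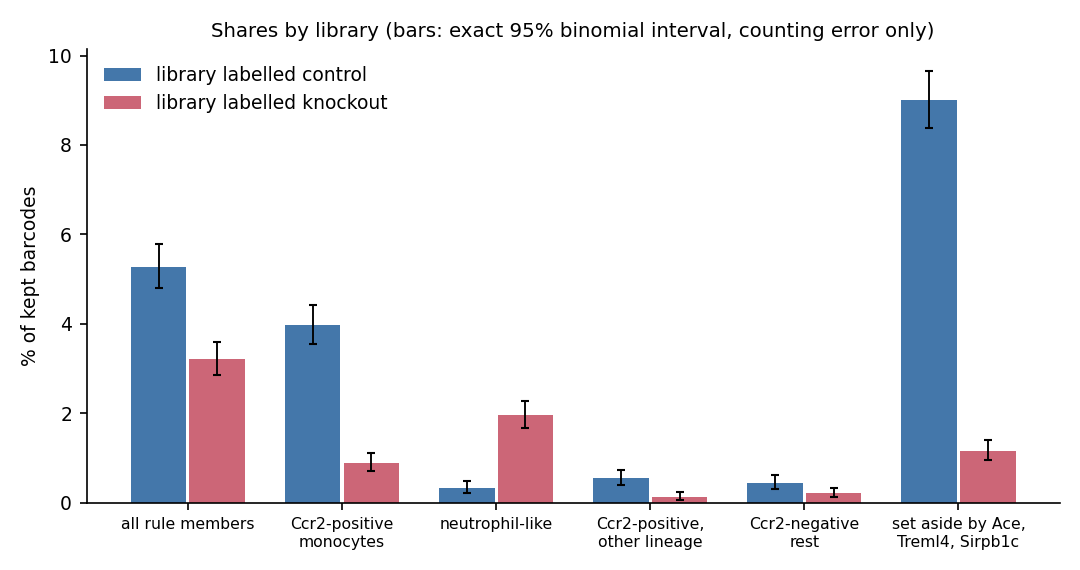
Share of kept barcodes (vertical, percent) in each library for all barcodes that passed the rule, the 4 groups within them, and the barcodes outside the rule with at least 3 counts of Ace, Treml4 and Sirpb1c. Bars are single libraries with exact 95% binomial intervals. Ccr2-positive monocytes are at 3.97% and 0.898%, neutrophil-like barcodes at 0.328% and 1.95%.

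Most barcodes with classical monocyte transcripts were set aside by the exclusion cuts. Of kept barcodes, 2073 in the control library and 1096 in the knockout library held at least 5 counts of the 4 genes. The cut on Ace, Treml4 and Sirpb1c, genes used for patrolling monocytes, stopped 1018 and 205 of them and was the only cut failed by 636 and 82. Of those 636 and 82, 629 and 79 held Ccr2, and 321 and 37 held no count of Ace or Treml4, so that Sirpb1c alone had set them aside. All barcodes with at least 3 counts of Ace, Treml4 and Sirpb1c that met the other lineage cuts, whatever their counts of the 4 genes, numbered 713 and 102. They held Ccr2 at 2343 and 2357 CPM and F13a1 at 667 and 1178 CPM, within 1.5-fold of the Ccr2-positive monocytes in both libraries. Csf1r stood at 1353 and 992 CPM, within 1.5-fold of them in the control library but more than 1.5-fold higher in the knockout library. With the cut placed on Ace and Treml4 alone, an alternative added after the values had been seen, Ccr2-positive monocytes numbered 746 and 131, and the log2 ratio of their shares was -2.66.

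Barcodes near the threshold were few. Among those that passed, 24 and 19 held 5 or 6 counts of the 4 genes, and 26 and 18 barcodes that met every other condition held 3 or 4 counts and stayed outside. Just inside, 62.5% and 36.8% held a Csf1r count and 0% and 47.4% were rich in neutrophil transcripts. Just outside, 73.1% and 27.8% held Csf1r and 11.5% and 22.2% were rich in neutrophil transcripts. The median sum of the 4 genes was 22.5 and 44 counts.

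Over all barcodes that passed the rule, of 9373 genes measured (a minimum of 20 counts in all, and 10 CPM in either library), 15.8% were called higher and 25.4% lower in the knockout library, 1478 and 2380 genes, around a median log2 ratio of -0.17. With TMM scaling, which raised all ratios by 0.18, the counts were 1942 and 1710. All 7 neutrophil markers were higher, with a median log2 ratio of 3.35: Ngp stood at 2207 and 22765 CPM and Camp at 245 and 3171 CPM. Prg2 stood at 2.38 and 1141 CPM, but 14 barcodes of the knockout library held it and 3 of them held 88.2% of its 3127 counts. Of those counts, 2778 lay in the Ccr2-negative rest and 344 in neutrophil-like barcodes. Without the neutrophil-like barcodes, 15.2% of 9541 genes were higher and 11.9% lower, 1453 and 1135 genes, so the count of higher genes stayed close while that of lower genes fell. Because the groups are mixed so unequally, the genes below are described in the Ccr2-positive monocytes, 314 and 79 barcodes. Their median counts were 5582 and 9971, whereas T and NK barcodes of the same libraries had medians of 5183 and 5228. Whether the difference lies in sequencing depth or in the RNA of each cell was not tested.

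As a group, the Ccr2-positive monocytes held classical identity genes in both libraries. Ccr2 stood at 2486 and 2240 CPM, which the rule and the line on Ccr2 fix in part. Lyz2, the lysozyme of myeloid cells, stood at 13836 CPM in the control library and 12459 CPM in the knockout library. Vcan (versican) stood at 548 and 467 CPM, Plac8 at 1216 and 1346 CPM, and Ms4a4c at 421 and 380 CPM. Each of these genes lay within 1.5-fold. Of 24 measured genes of the classical list outside the rule, 2 were higher and 5 lower, and the median log2 ratio was -0.15, against 16.3% higher and 14.5% lower among all 8986 genes measured in these cells and a median of 0.06.

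Some identity genes differed. Ly6c2 stood at 750 CPM (713 to 789) in the control library and 1879 CPM (1791 to 1970) in the knockout library, a log2 ratio of 1.33 (1.22 to 1.43), and F13a1, the coagulation factor XIII subunit, at 994 and 1627 CPM (log2 ratio 0.71, 0.61 to 0.81). Both belong to the rule. F13a1 came within 1.5-fold without the cycling cells described below, at 1000 and 1112 CPM, and without C1q-positive barcodes (more than 2 counts per 10000 of C1qa, C1qb and C1qc), where 113 and 51 cells were left, at 1661 and 1917 CPM. Outside the rule, Klf4, a transcription factor of monocyte differentiation in mice, stood at 189 and 539 CPM (log2 ratio 1.51, 1.32 to 1.71), and was detected in 49.4% and 82.3% of cells. Csf1r stood at 1292 and 634 CPM (log2 ratio -1.03, -1.16 to -0.90). The lipopolysaccharide co-receptor Cd14 stood at 169 and 80.1 CPM (log2 ratio -1.08, -1.46 to -0.71), and Sirpb1a at 59.1 and 27.4 CPM (log2 ratio -1.11, -1.79 to -0.48). Without cycling cells these 3 lower genes came within 1.5-fold, Csf1r at 1324 and 958 CPM, Cd14 at 183 and 124 CPM and Sirpb1a at 64.1 and 56.7 CPM, and 1 of the 24 genes of the classical list was lower. Without C1q-positive barcodes 14 of the 24 were lower and 1 higher, where 18.3% of all 7449 genes measured were higher and 16% lower. Chil3, a chitinase-like secreted protein, stood at 738 and 934 CPM, within 1.5-fold.

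**Figure D4:**
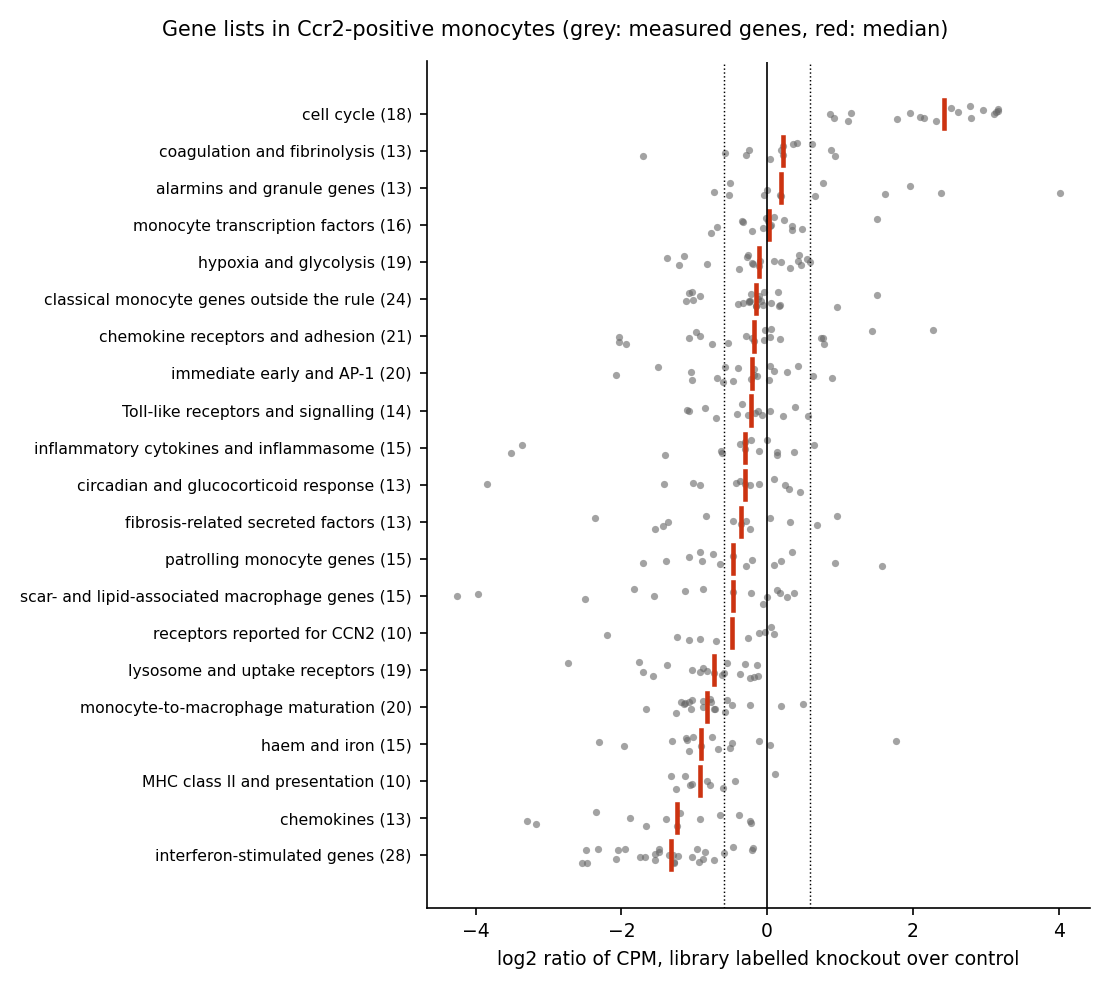
Log2 ratio of CPM, knockout over control library, of each measured gene (grey) and the median (red) of 21 gene lists in the Ccr2-positive monocytes, with the number of measured genes in brackets and dotted lines at 1.5-fold. The cell cycle list lies to the right, with a median of 2.42, and the interferon-stimulated, chemokine, MHC class II, haem and iron and maturation lists lie to the left, with medians from -1.32 to -0.83.

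Genes of dividing cells were higher in the knockout library. All 18 cell cycle genes were called higher, with a median log2 ratio of 2.42. Mki67 stood at 147 and 1144 CPM and Top2a, the topoisomerase that untangles replicated DNA, at 161 and 1112 CPM. Ube2c, part of the ubiquitin machinery of mitotic exit, stood at 42.9 and 377 CPM (log2 ratio 3.14, 2.80 to 3.50). Ccnb1 and Ccnb2, the mitotic cyclins, stood at 15.8 and 142 CPM and at 15.3 and 137 CPM. Hmgb2, a chromatin protein of cycling cells, stood at 380 and 1683 CPM. Cells with at least 3 counts in sum of Mki67, Top2a, Birc5, Ube2c and Cdk1 were 18 of 314, or 5.73%, and 35 of 79, or 44.3%. After each cell had been thinned to 4000 counts, with 21 and 1 shallower cells left out, the shares were 4.78% (2.64 to 7.89) of 293 and 43.6% (32.4 to 55.3) of 78. The share is therefore about as large at equal depth. T and NK barcodes of the same libraries went the other way, with 16 of 18 cell cycle genes lower, none higher and a median of -0.78, over a set in which 10.4% of 9522 genes were called higher and 11.3% lower.

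The cycling cells of the knockout library had a profile of their own. At 4000 counts per cell, Ly6c2 reached at least 3 counts in 94.1% of the 34 cycling cells and in 45.5% of the 44 others. Ccr2 reached 3 counts in 91.2% of the cycling cells and 88.6% of the others. Prtn3 (proteinase 3), a protease of young myeloid cells, averaged 1.29 counts in cycling cells and 0.136 in the others, and Csf1r averaged 1.15 and 3.68 counts. The class II genes H2-Aa, H2-Ab1, H2-Eb1 and Cd74 together averaged 5.41 counts in cycling cells and 52.8 in the others, and C1qa, C1qb and C1qc averaged 2.09 and 12.1. In the control library there were 14 cycling cells at this depth, and there Ly6c2 reached 3 counts in 35.7%, Csf1r averaged 3.64 counts, the class II genes 30.6 and the C1q genes 23.5. Against these cells, the cycling cells of the knockout library were higher in Ly6c2 and lower in Csf1r, class II and C1q, over 34 and 14 cells and with no test.

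Genes of the passage from monocyte to macrophage were lower in the knockout library. Of 20 maturation genes, 14 were lower and none higher, with a median log2 ratio of -0.83. Apoe, the lipid carrier of macrophages, stood at 3673 and 1789 CPM (log2 ratio -1.04, -1.12 to -0.96). Maf, a macrophage transcription factor, stood at 1136 and 359 CPM and was detected in 71.7% and 39.2% of cells. C1qb, a complement C1q chain, stood at 1743 and 768 CPM. The lysosomal proteases Ctsb and Ctsd stood at 3638 and 1738 CPM and at 237 and 99.8 CPM. Both were detected in similar shares of cells, Ctsb in 99.7% and 98.7%, whereas C1qb was detected in 61.8% and 45.6%.

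MHC class II genes, which present antigen to CD4 T cells, went the same way. Of 10 genes of the list, 8 were lower and none higher, with a median log2 ratio of -0.92. H2-Aa stood at 4492 and 1801 CPM (log2 ratio -1.32, -1.40 to -1.24), and was detected in 68.5% and 45.6% of cells. H2-Ab1 stood at 3584 and 1724 CPM and Cd74, the invariant chain, at 3527 and 1620 CPM. The costimulator Cd86 stood at 112 and 47.2 CPM. At 4000 counts per cell, 63.1% of 293 and 29.5% of 78 cells held at least 3 counts of the 4 class II genes, and 45.1% and 20.5% held at least 3 counts of the C1q genes.

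Many of the differences moved with the cycling cells. Without them, in 296 and 44 cells, 13.6% of 8627 genes were called higher and 15.7% lower, and of 85 named genes that had been beyond 1.5-fold, 33 no longer were. The median log2 ratio was -0.06 for class II genes, with none lower and 1 higher, and -0.29 for maturation genes, with 3 lower and 2 higher. H2-Aa then stood at 4663 and 3662 CPM and Apoe at 3691 and 2807 CPM. Maf stayed lower, at 1174 and 626 CPM. Klf4 stayed higher, at 190 and 427 CPM, as did Ly6c2, at 730 and 1105 CPM (log2 ratio 0.60). For the cell cycle list, 10 genes were then measured, with a median of 0.18. Cycling cells had been picked by genes of this kind, so the fall of this list was fixed in advance. Of the 10 gene lists with a median beyond 1.5-fold, 4 remained so without cycling cells: interferon-stimulated genes, chemokines, and the hepatocyte and the erythroid and platelet markers.

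**Figure D5:**
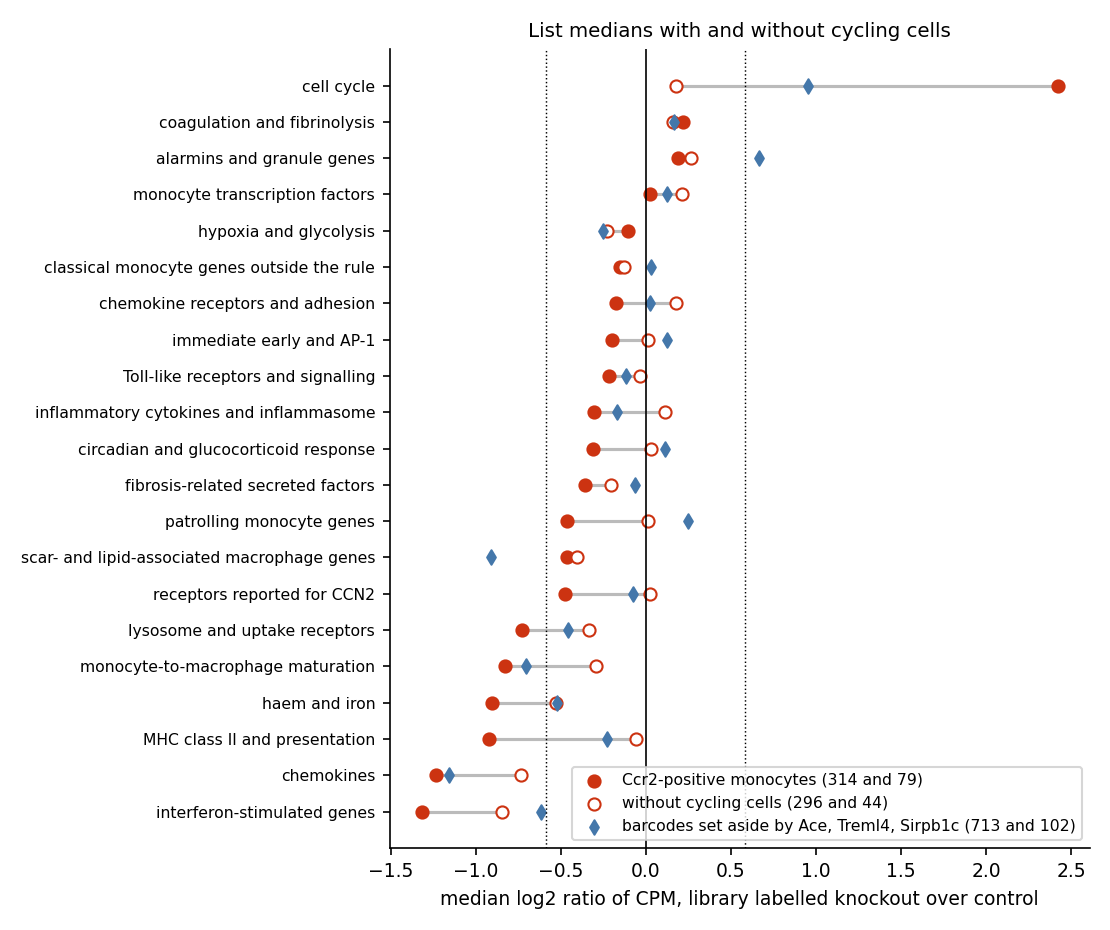
Median log2 ratio of CPM, knockout over control library, of 21 gene lists in the Ccr2-positive monocytes (filled red), in the same cells without cycling cells (open red) and in the barcodes set aside by Ace, Treml4 and Sirpb1c (blue diamonds), with dotted lines at 1.5-fold. Without cycling cells the class II median moves from -0.92 to -0.06, while the interferon-stimulated median moves from -1.32 to -0.85 and stays beyond 1.5-fold.

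Interferon-stimulated genes were lower in the knockout library, with and without cycling cells. Of 28 measured genes, 25 were lower and none higher, with a median log2 ratio of -1.32. Ifi204, a DNA sensor, stood at 555 and 238 CPM (log2 ratio -1.22, -1.44 to -1.01), and Slfn5 at 590 and 309 CPM, which came to 640 and 572 CPM without cycling cells. Ifit1, which binds foreign RNA, stood at 49.3 and 8.78 CPM (log2 ratio -2.49, -3.74 to -1.45), and Oasl1 at 30.5 and 5.49 CPM. Without cycling cells 19 of the 28 were lower and none higher, with a median of -0.85. In the barcodes set aside by Ace, Treml4 and Sirpb1c, 14 were lower and none higher, with a median of -0.61, where 11.8% of 9110 genes were higher and 10.2% lower. In T and NK barcodes the median was -0.57, with 12 of 25 lower and 1 higher. In neutrophil-like barcodes it was -0.05, with 4 of 18 lower and 1 higher. Kupffer cell barcodes were mixed, and no list median is given for them. There Ifi204 stood at 458 and 494 CPM, Slfn5 at 425 and 541 CPM and Oasl1 at 77.2 and 79.4 CPM. Ifit1 was lower there, at 50.6 and 32.9 CPM, as was Gbp2, at 148 and 74.1 CPM. Other cells of these libraries thus shared the lower values to unlike extents.

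Chemokine genes, whose products recruit other leukocytes, were lower too. Of 13 measured, 10 were lower and none higher, with a median log2 ratio of -1.24, and -0.74 without cycling cells. Cxcl9 and Cxcl10, which attract T cells through CXCR3, stood at 183 and 18.7 CPM and at 59.1 and 6.58 CPM. These counts were uneven among cells: Cxcl9 was detected in 9.87% and 5.06% of cells, and 1 cell held 29.3% of its counts in the control library. Cxcl2, which attracts neutrophils, stood at 145 and 28.5 CPM and was detected in 19.7% and 7.59% of cells. Ccl6 was abundant, at 1184 and 626 CPM, and Ccl9 stood at 750 and 639 CPM, within 1.5-fold.

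Among inflammatory genes the list as a whole was mixed, with 1 of 15 higher, 5 lower and a median of -0.30. Il1rn, the interleukin-1 receptor antagonist, stood at 138 and 12.1 CPM (log2 ratio -3.52, -4.54 to -2.66), in 16.2% and 10.1% of cells, and 1 cell held 35.6% of its counts in the control library. The inhibitor Nfkbia stood at 382 and 353 CPM and Tnfaip2 at 134 and 147 CPM, both within 1.5-fold, while Tnfaip3 stood at 55.2 and 20.8 CPM, and at 54.8 and 46.4 CPM without cycling cells. The inflammatory list then had 2 of 15 higher and 2 lower, with a median of 0.11. Without C1q-positive barcodes it had 8 of 14 lower and none higher, with a median of -0.75. Of 14 Toll-like receptor and signalling genes, 4 were lower and none higher, among them Tlr7 at 136 and 63.6 CPM and Tlr4 at 69.4 and 38.4 CPM. Without cycling cells none of the 14 was lower and 1 was higher. Tlr7 then stood at 138 and 103 CPM and Tlr4 at 68.5 and 61.8 CPM. Without C1q-positive barcodes 7 of the 14 were lower and none higher, with a median of -0.55.

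Of 13 alarmin and granule genes 6 were higher and 1 lower, with a median of 0.19, and without cycling cells 4 were higher. Prtn3 stood at 36.4 and 190 CPM (log2 ratio 2.38, 1.98 to 2.79), in 13.1% and 44.3% of cells, and came to 32.9 and 46.4 CPM without cycling cells. S100a8 stood at 53.7 and 208 CPM and S100a9 at 7.88 and 127 CPM, but 1 cell of the knockout library held 60.5% of the S100a8 counts and 73.3% of the S100a9 counts there. Cybb, the catalytic subunit of the phagocyte oxidase, was abundant, at 2218 and 1561 CPM, within 1.5-fold.

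Adhesion genes and receptors used to enter tissue were mixed, with 5 of 21 higher and 7 lower. Itga4, the alpha chain of VLA-4, stood at 726 and 630 CPM and Cd44, the hyaluronan receptor, at 623 and 605 CPM, both within 1.5-fold. The formyl peptide receptor Fpr2 stood at 99.0 and 24.1 CPM, and the chemokine receptor-like gene Ccrl2 at 49.3 and 12.1 CPM. S1pr4 stood at 5.91 and 28.5 CPM. Of 15 genes used for patrolling monocytes, 2 were higher and 7 lower: Spn (CD43) stood at 34.5 and 103 CPM, and at 29.0 and 36.1 CPM without cycling cells. Cd36, a scavenger receptor, stood at 233 and 71.3 CPM.

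The lipid, scar-type and iron genes named here that lay beyond 1.5-fold were lower in the knockout library, apart from Tfrc. Lpl, the lipoprotein lipase, stood at 1206 and 213 CPM (log2 ratio -2.50, -2.72 to -2.29), and at 1255 and 397 CPM without cycling cells. Spp1 (osteopontin) stood at 126 and 6.58 CPM, in 8.92% and 5.06% of cells. Mmp12 held 104 counts in the control library and 0 in the knockout library. With a floor of 3 counts it was 15.6-fold lower, and the upper limit of its log2 ratio was -3.64. Of the 15 scar- and lipid-associated genes, 7 were lower and none higher, with a median of -0.46, while Vim and Lgals3 were abundant and within 1.5-fold, at 1960 and 2532 CPM and at 1681 and 1841 CPM. The haem and iron list had 10 of 15 lower and 1 higher and its median was -0.90. Without cycling cells 6 were lower and the median was -0.53. The iron exporter Slc40a1 stood at 309 and 79.0 CPM, the ferritin chains Ftl1 and Fth1 at 3223 and 1725 CPM and at 2488 and 1479 CPM, and the transferrin receptor Tfrc, which brings iron in, at 10.3 and 35.1 CPM. The ferritin chains came within 1.5-fold without cycling cells, at 3299 and 2266 CPM and at 2609 and 2158 CPM.

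Lysosome and uptake genes had 12 of 19 lower and none higher, with a median of -0.73. Ctss, a cathepsin of antigen processing, stood at 3789 and 1998 CPM, and at 3975 and 3131 CPM without cycling cells. The fungal pattern receptor Clec4n (dectin-2) stood at 94.6 and 14.3 CPM, and the Fc receptor Fcgr4 at 220 and 64.7 CPM, detected in 52.2% and 20.3% of cells. Without cycling cells the median was -0.34, with 5 genes lower.

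Of the secreted genes linked to fibrosis, 2 of 13 were higher and 5 lower. Fn1 (fibronectin) was higher, at 1054 and 2053 CPM (log2 ratio 0.96, 0.87 to 1.05), and at 1105 and 2063 CPM without cycling cells. In the knockout library 1 cell held 16.7% of its counts. Without C1q-positive barcodes Fn1 stood at 1404 and 1461 CPM. Of the 12 genes of the list then measured none was higher and 7 were lower, with a median of -0.89. Mmp19 stood at 90.1 and 17.5 CPM, and Igf1, a growth factor of repair macrophages, at 186 and 69.1 CPM, or 181 and 121 CPM without cycling cells. Of 13 coagulation and fibrinolysis genes 3 were higher and 1 lower, the serpin Serpinb10 among the higher at 57.6 and 105 CPM and the urokinase Plau lower at 25.1 and 7.68 CPM. Serpinb10 came within 1.5-fold without cycling cells, at 61.9 and 82.4 CPM, and without C1q-positive barcodes, at 102 and 122 CPM.

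Of 10 measured receptors reported for CCN2, 5 were lower and none higher, with a median of -0.48, which came to 0.03 without cycling cells. The beta-2 and beta-1 integrins Itgb2 and Itgb1 lay within 1.5-fold, at 548 and 535 CPM and at 475 and 495 CPM. The heparan sulfate proteoglycan Sdc4 stood at 106 and 23.0 CPM (log2 ratio -2.20, -2.92 to -1.55), Itgb5 at 139 and 59.2 CPM and the endocytic receptor Lrp1 at 379 and 181 CPM. Without cycling cells 2 of the 10 were lower, and Itgb5 stood at 137 and 106 CPM. Without C1q-positive barcodes 7 of the 10 were lower and none higher, with a median of -0.99.

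Ccn2 itself was scarce in these cells. It held 24 counts in the control library and 2 in the knockout library, in 6.37% (3.93 to 9.67) and 2.53% (0.308 to 8.85) of Ccr2-positive monocytes. That came to 11.8 and 2.19 CPM. T and NK barcodes, which should lack it, held it in 7.93% and 3.47%, at median depths of 5183 and 5228 counts. They stood at 43.5 and 49.6 CPM, with 105 counts in 12 barcodes of the knockout library. B cell barcodes held it in 10.2% and 0.855%, at 144 and 1.68 CPM. The part of free RNA in the monocyte counts was not tested. Over all barcodes that passed the rule, Ccn2 stood at 45.2 and 39.0 CPM, and the barcodes that held genes of another lineage carried most of it, at 209 and 328 CPM.

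In the Ccr2-positive monocytes, the lists of circadian and glucocorticoid genes, immediate early genes, hypoxia and glycolysis genes and monocyte transcription factors had medians within 1.5-fold. The glucocorticoid-induced gene Fkbp5 stood at 400 and 150 CPM (log2 ratio -1.41, -1.69 to -1.15), in a circadian and glucocorticoid list with 4 of 13 lower and none higher. Of 20 immediate early genes 2 were higher and 6 lower, and Fos, a subunit of the AP-1 factor, stood at 1453 and 1477 CPM. Of 19 hypoxia and glycolysis genes 1 was higher and 4 lower, with Gapdh at 938 and 1075 CPM. Of 16 monocyte transcription factors 1 was higher and 2 lower, with Zeb2 at 784 and 757 CPM and Cebpb at 477 and 496 CPM.

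Over all genes, those with the highest ratios were mostly of mitosis, such as Cep55, Cdc20 and Kif11, at 6.40 and 96.5 CPM, 8.37 and 81.2 CPM, and 22.2 and 203 CPM. The inducible heat shock genes Hspa1b and Hspa1a stood apart from these, at 4.43 and 158 CPM and at 6.90 and 85.6 CPM, detected in 2.23% and 19.0% and in 2.23% and 24.1% of cells, and Hspa1b stood at 4.93 and 224 CPM without cycling cells. Other cells showed the same direction: Hspa1b stood at 7.47 and 76.9 CPM in the barcodes set aside by Ace, Treml4 and Sirpb1c and at 0 and 27.7 CPM in B cell barcodes. Hspa1a stood at 1.47 and 18.0 CPM in T and NK barcodes and at 22.4 and 67.0 CPM in Kupffer cell barcodes. A part of handling or of free RNA in these values was not tested. Gria3, a glutamate receptor subunit, stood at 8.37 and 129 CPM, in 3.18% and 31.6% of cells. Among the lowest, Retnla, a secreted protein of alternatively activated macrophages, held 351 and 10 counts, but 9 cells held it in the control library and 1 of them held 60.4% of its counts.

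Markers of other cell types moved with the library in some cases. All 8 hepatocyte markers were detected in the Ccr2-positive monocytes of both libraries, with a summed level of 714 and 233 CPM, 7 of 8 lower and a median of -1.76, and in T and NK barcodes the median was -2.04. Alb stood at 264 and 48.3 CPM. Erythroid and platelet markers summed to 1149 and 85.6 CPM, and 1 cell of the control library held 55.2% of the Hba-a1 counts. Of 5 such genes measured, 5 were lower, with a median of -4.18. In the barcodes set aside by Ace, Treml4 and Sirpb1c 5 of 5 were lower too, with a median of -1.16. T and NK barcodes went the other way, with 3 of 4 higher, none lower and a median of 0.99. Stellate cell markers summed to 70.9 and 37.3 CPM, with 3 of 4 measured genes lower and a median of -0.94, and -0.34 without cycling cells. Endothelial markers summed to 196 and 239 CPM, Kupffer cell markers to 148 and 148 CPM, and B cell markers to 19.2 and 8.78 CPM, with T and NK cell markers at 10.3 and 2.19 CPM. The part of free or carried-over RNA in the monocyte differences was not tested.

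Among the cells of each library, Ly6c2 and the maturation programme ran against each other. Over cells thinned to 4000 counts, Spearman's rho between Ly6c2 and the summed class II genes was -0.61 in 293 cells of the control library and -0.54 in 78 of the knockout library. For summed maturation genes it was -0.58 and -0.44, for alarmin and granule genes 0.56 and 0.43, and for cell cycle genes 0.13 and 0.49. The cells of a library share that library and its free RNA, and these values describe them without a test. The genes most uneven among cells included H2-Aa, H2-Ab1, H2-Eb1, Cd74 and Apoe in both libraries, with a ratio of variance to mean for H2-Aa of 26.4 in the control library and 38.5 in the knockout library.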

How the data were processed

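Raw counts (whole numbers for each gene in each barcode, not normalized) were deposited by the authors. They were made with the BD Rhapsody whole transcriptome assay, per the labels' protocols, on build GRCm39, per the submitters' processing notes. No source used here names the aligner, how cells were called, or whether molecular identifiers were collapsed. Intervals take counts as independent molecules. Barcodes with at least 300 genes and at most 25% mitochondrial counts were kept, and 25114 genes listed in both files entered the ratios.

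Counts were summed over the barcodes of a group and expressed as CPM (share of the sum, scaled to 1e6). Levels have exact Poisson intervals, ratios exact conditional intervals and shares exact Clopper-Pearson intervals, all at 95%. For a ratio, a group total of 0 was replaced by a floor of 3 counts. The members and all 31 gene lists were chosen with earlier results of these data known, and the groups within the members were drawn after their values had been seen. Named genes were, per list, the 2 of highest CPM and up to 3 with the largest ratio of at least 1.5-fold whose interval excluded 0, and over all genes the 12 highest and 12 lowest ratios with at least 50 CPM and 40 counts, leaving out genes that other barcodes could supply as free RNA. The text prints examples of them, picked after their values were known, with Csf1r, Vcan, Plac8, Ms4a4c, Mki67, Top2a and the markers of the other groups added in the same way. Doublets were scored with Scrublet in Scanpy 1.11.5 and kept in the main values. Removal of the top 5% of scores in each library was an alternative. The code was tested on simulated counts. Python 3.11.15, SciPy 1.17.1 and edgeR 4.0.16 (for TMM factors alone) were used. No coordinates are printed, because the files and the available reference differ in build.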

Additional observations from a re-analysis of the deposited data

How the results depend on the processing

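No paired analysis was possible because each label has 1 library and no test was made. In the Ccr2-positive monocytes, the 10 lists with a median beyond 1.5-fold kept their sign under 15 alternatives (9 of them could be measured at the 50 CPM minimum), except the erythroid and platelet list, at 0.66 when every barcode was thinned to 4000 counts before the rule. They did not all stay beyond 1.5-fold: thinning took class II genes to -0.56, and leaving out cycling cells took 6 lists within it, class II at -0.06, cell cycle at 0.18, maturation at -0.29, stellate at -0.34, lysosome at -0.34 and haem and iron at -0.53. The move of the cell cycle list was fixed in advance by how cycling cells were picked. Of 86 named genes beyond 1.5-fold in the Ccr2-positive monocytes, 33 came within it or turned without cycling cells and 9 without C1q-positive barcodes. Among them Hba-a1 turned to 0.75 and F5 to -0.24 when every barcode was thinned, and F5 to -0.51, Ear2 to 0.050 and Retnla to 1.81 without C1q-positive barcodes. Bach2 turned to 0.016 with the same cells thinned, and Top2a to -0.64 without cycling cells. The cause was not tested.

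The log2 ratio of shares over all that passed the rule, -0.72, was -1.99 without neutrophil-like barcodes and -1.57 with the cut on Ace and Treml4 alone, and turned to 0.33 without C1q-positive barcodes, where 142 and 198 were left. For the Ccr2-positive monocytes, -2.14 became -1.30 without C1q-positive barcodes, -2.66 with the Ace and Treml4 cut, and -2.90 without cycling cells. A minimum of 50 CPM and 50 counts left 691 genes higher and 975 lower over the rule and 598 and 472 in the Ccr2-positive monocytes. No minimum gave 4699 and 5524, and 5480 and 2285, because more genes are then counted. Without neutrophil-like barcodes 1135 genes were lower over the rule. The ratio of Ccn2 over the rule, -0.21, was -0.64 and -0.67 at marker sums of 3 and 10, -1.72 with 2 markers required, 0.33 without neutrophil-like, -3.89 without C1q-positive and -2.57 without other-lineage barcodes, -0.88 with the Ace and Treml4 cut, and -1.50 thinned. Doublet removal took 4 and 3 barcodes that passed the rule and no Ccr2-positive monocyte.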

Other observations

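The barcodes set aside by at least 3 counts of Ace, Treml4 and Sirpb1c, 713 in the control library and 102 in the knockout library, gave a further view of cells with monocyte transcripts. In them 15 of 18 cell cycle genes were at least 1.5-fold higher in the knockout library and none lower, with a median log2 ratio of 0.95. Of 20 maturation genes 14 were lower and none higher, with a median of -0.70, and of 13 chemokines 10 were lower and none higher, with a median of -1.16. Of 10 class II genes 2 were lower. Klf4 stood at 153 and 393 CPM and Ly6c2 at 554 and 819 CPM. Neutrophil transcripts were present here too: 5 of 6 measured neutrophil markers were higher, Ngp was detected in 1.12% and 10.8% of these barcodes, and hepatocyte markers were lower, with a median of -2.70. The part of either in the other differences was not tested.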
